A study of Rattus norvegicus with 24 samples.

Results

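The pore-forming and auxiliary subunits of voltage-gated sodium channels, voltage-gated calcium channels and HCN channels were examined in the dentate gyrus of aged rats with or without a memory deficit and of young rats. The genes were taken by name: every probe set of the array that the platform annotation gives 1 symbol, where that symbol starts with Scn or Hcn and a digit, or starts with Cacn. This gave 55 probe sets for 39 genes, of 14217 genes with 1 symbol on the array. The symbols that start with Cacng include the TARPs, which are named as calcium channel gamma subunits but several of which serve AMPA receptors.

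All rats were male Long-Evans, and total RNA of the dentate gyrus, dissected from the hippocampus, was read on 1 Affymetrix rat array per labelled sample. The aged rats were 24 to 26 months old, and the young rats were 6 months old. A learning index from a water maze placed each aged rat as impaired (worse than the young range, 7 arrays) or as unimpaired (inside the young range, 6 arrays), and 8 arrays were from young rats. No group was treated, and the submitters left another 3 of the 24 labelled arrays, 1 from each group, out after their quality control.

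Voltage-gated sodium channels carry the upstroke of the action potential: an alpha subunit forms the pore, and beta subunits tune its gating and hold it in place. Voltage-gated calcium channels admit calcium on depolarization, at synaptic terminals to release transmitter and in the soma and dendrites to signal to the nucleus; a pore-forming alpha1 subunit is trafficked by alpha2delta and beta subunits. HCN channels open on hyperpolarization, are gated by cyclic nucleotides, and set resting conductance and the integration of synaptic input in hippocampal neurons.

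The values were log2 probe set summaries (GCRMA), and a probe set was tested if it exceeded 4 on at least 6 of the 21 arrays. The array medians lay between 3.77 and 3.84, and arrays of the same group correlated at 0.997 to 0.998 over all probe sets. Of 12 markers of granule neurons on the array, 11 were measured, among them Prox1, a transcription factor that defines these cells. Markers of neighbouring fields were measured as well: 5 of 5 for CA1 neurons and 7 of 8 for CA3 and CA2 neurons. A list of meningeal genes stood highest on impaired replicates 2, 3 and 7 and young replicate 5, with scores (the list's mean log2 value minus that of all other tested probe sets) of 0.29, 0.19, -0.52 and -0.74, against -1.47 to -0.95 on the other 17 arrays. Of 9 choroid plexus markers on the array, 1 was measured, Ttr, the thyroid hormone carrier transthyretin. Its score by the same reckoning was 2.30 on impaired replicate 7, -0.46 on impaired replicate 3, 1.70 on unimpaired replicate 3 and 3.04 on young replicate 2, while the remaining 17 arrays scored -3.63 to -2.23. Without the 4 arrays of highest meningeal score, Hcn2 and Cacng3 differed by 0.35 and 0.30 (log2) for impaired minus young, and without the 4 of highest choroid plexus score by 0.34 and 0.29, against 0.34 and 0.29 with all arrays. The values of Cacna2d3 for unimpaired minus young were -0.24 and -0.22 in these fits, against -0.22 with all arrays. In bulk tissue, fewer cells of a type and less RNA per cell cannot be told apart.

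Of the 39 genes, 18 were measured, through 23 of the 55 probe sets (41.8%, against 48.9% of the 31042 probe sets that are not controls). Each of these 23 probe sets was above 4 on all 21 arrays, so none entered through 1 group alone. The weakest was a probe set for Cacna1a with a mean of 4.33. Of the probe sets not tested, a second probe set for Scn2b (mean 3.61) was above 4 on 3 arrays. The higher probe set for Cacna1h (mean 3.32) was above 4 on 1 array, young replicate 7 (6.16). The other 30 probe sets were above 4 on no array.

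The measured sodium channel genes were the alpha subunits Scn1a, Scn2a and Scn3a and the beta subunits Scn2b, Scn3b and Scn4b. For calcium channels they were the L-type pores Cacna1c and Cacna1d, the P/Q-type pore Cacna1a, the N-type pore Cacna1b, the alpha2delta subunits Cacna2d1 and Cacna2d3, the beta subunits Cacnb1, Cacnb2 and Cacnb3, and the TARPs Cacng2 and Cacng3. Of the HCN genes analysed here, Hcn2 was measured.

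The 21 genes that were not measured include all 3 T-type pores (Cacna1g, Cacna1h, Cacna1i) and the R-type pore Cacna1e. Scn8a, a sodium channel of the axon initial segment, had a highest probe set mean of 3.31. Skeletal muscle, retinal and sensory neuron members (Scn4a, Scn10a, Scn11a, Cacna1s, Cacna1f, Cacng1) were also below the threshold, with Scn7a, Scn9a, Cacnb4, Cacng4 to Cacng8, Hcn3 and Hcn4. A value below the threshold is a limit of the probe set as much as of the RNA, and no absence is drawn from it.

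**Figure D1:**
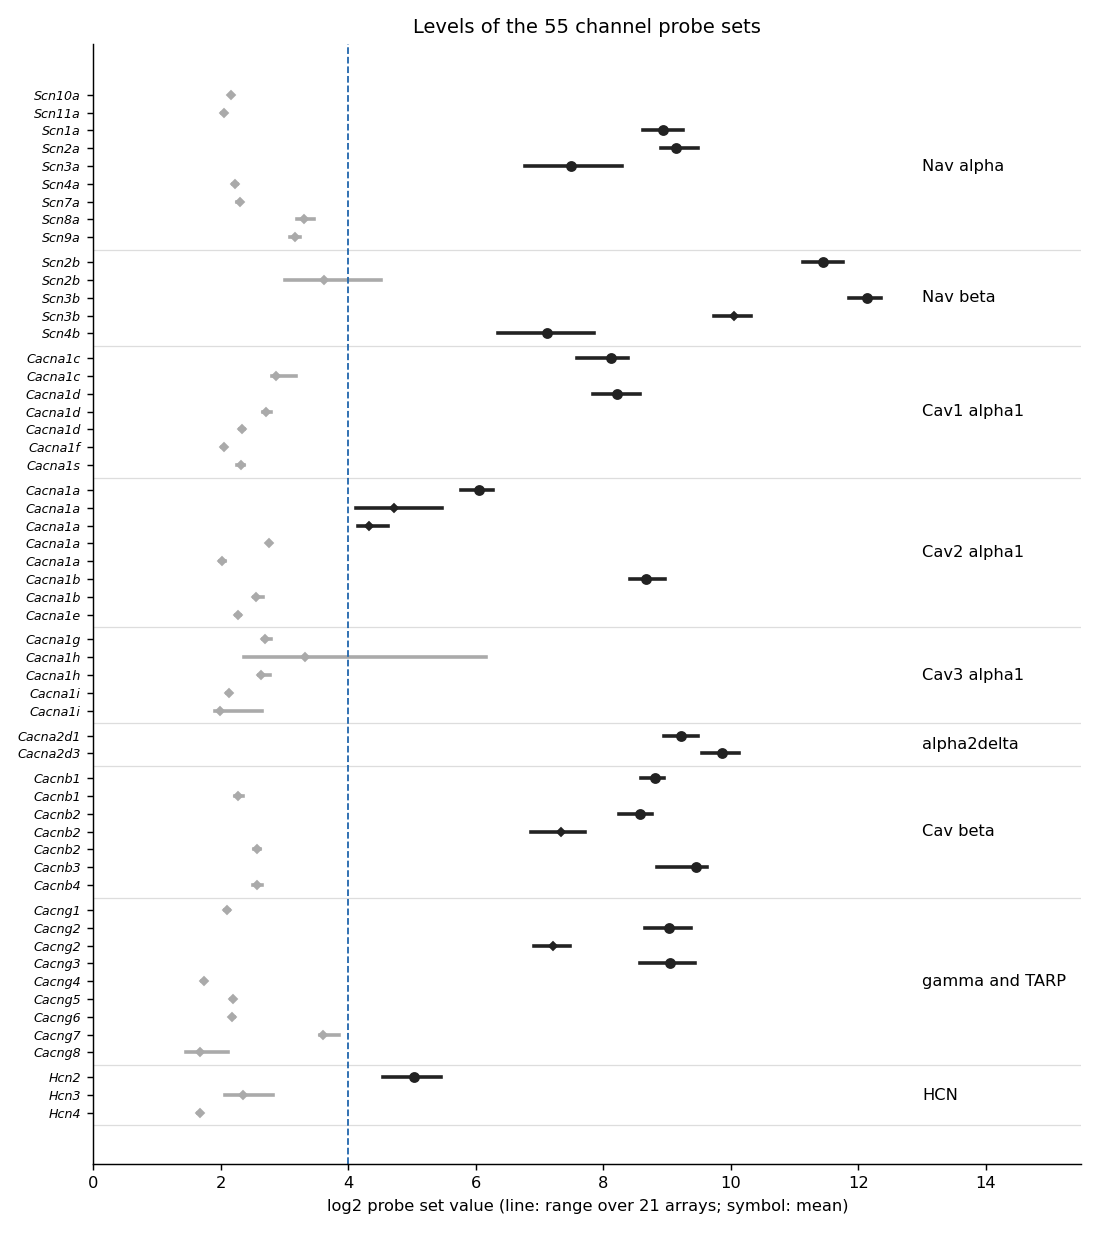
Levels of the 55 channel probe sets, by role; the x axis is the log2 probe set value, symbols are means and lines the range over 21 arrays, and the dashed line marks the threshold of 4. The 23 tested probe sets lie wholly to the right of the line; levels of different probe sets cannot be compared as amounts of RNA.

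No channel gene passed an adjusted p of 0.05 in limma, with p-values adjusted over all 15177 probe sets tested and 1 probe set per gene, the one with the highest mean. Aged impaired against young gave 0 of 18 genes, where 0.514% of all probe sets passed, and aged unimpaired against young gave 0 of 18, where 1.13% passed. Impaired against unimpaired rats gave 0 of 18, where 0% of all probe sets passed. All aged rats against young gave 0 of 18, where 1.11% passed.

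At an unadjusted p below 0.05 in limma, 3 of 18 genes were reached in impaired against young rats (16.7%, against 12.4% of all probe sets), all with higher values in impaired rats (7.69% of all probe sets in that direction). Unimpaired against young rats gave 4 of 18 (22.2%, against 17%), of which 2 were higher and 2 lower in unimpaired rats (3.18% and 13.8% of all probe sets). Impaired against unimpaired rats gave 1 of 18 (5.56%, against 14.5%), and all aged against young gave 4 of 18 (22.2%, against 14.6%). Differences between these shares were not tested. The median log2 difference over the 18 genes was -0.003 for impaired minus young and -0.03 for unimpaired minus young, against 0.01 and -0.04 over all probe sets. For impaired minus unimpaired it was 0.06, against 0.05 over all probe sets, and 13 of 18 genes had a positive difference, as did 72.4% of all probe sets. The 3 comparisons with young rats share the same 8 young arrays.

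The intervals bound the difference in probe set value that could have been missed for most of the genes. In impaired against young rats the 95% interval of the difference lay within 1.5-fold in either direction for 17 of 18 genes. It did so for 14452 of all 15177 probe sets. In unimpaired against young rats the counts were 17 of 18 and 14297 of 15177. The exception among the channel genes in both was Scn4b. Between impaired and unimpaired rats the counts were 16 of 18, with Scn3a and Scn4b wider, and 14396 of 15177.

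**Figure D2:**
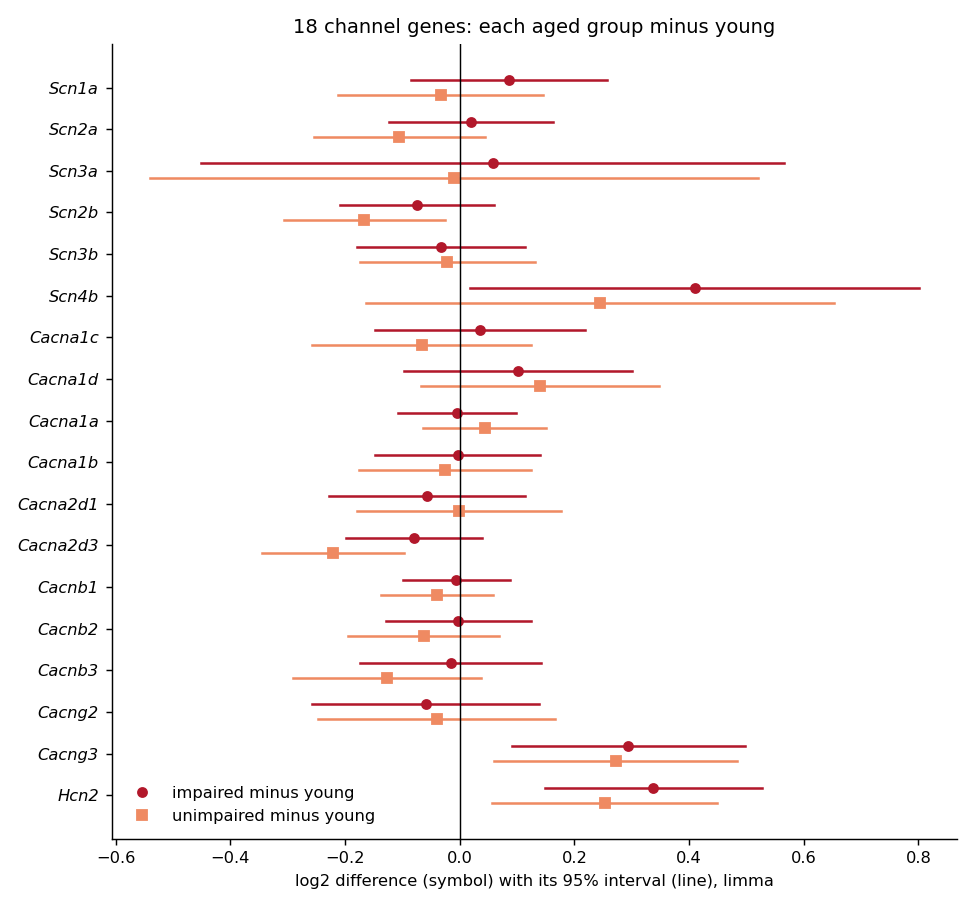
Differences of the 18 measured channel genes, impaired minus young (circles) and unimpaired minus young (squares); the x axis is the log2 difference with its 95% interval from limma. The intervals of Hcn2 and Cacng3 lie to the right of 0 in both comparisons. That of Cacna2d3 lies to the left for unimpaired minus young and crosses 0 for impaired minus young (-0.20 to 0.04). None of the 18 genes passed an adjusted p of 0.05.

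Among sodium channel pores, Scn1a, which is prominent in fast-spiking interneurons, had log2 values of 8.64, 9.05 and 9.26 (lowest, median, highest) in impaired rats, 8.79, 8.87 and 8.96 in unimpaired rats and 8.62, 8.95 and 9.12 in young rats. The 3 groups overlapped, with a narrower spread in unimpaired rats. Its difference was 0.12 ± 0.09 (moderated SE here and below) for impaired minus unimpaired, adjusted p = 0.547 in limma.

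Scn2a, the main pore of unmyelinated axons and of excitatory neurons early in development, had 9.02, 9.12 and 9.48 in impaired rats, 8.90, 9.08 and 9.15 in unimpaired rats and 8.95, 9.15 and 9.38 in young rats. All 6 unimpaired arrays lay at or below the young mean, yet inside or just under the young range. The difference was -0.11 ± 0.07 for unimpaired minus young (adjusted p = 0.471 in limma) and 0.12 ± 0.07 for impaired minus unimpaired (adjusted p = 0.442).

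Scn3a, best known from the immature brain, was the most variable channel gene within groups, with a pooled SD of 0.504 on the log2 scale, higher than in 98.3% of all tested probe sets. It ran through 7.07, 7.48 and 8.29 in impaired rats, 6.79, 7.49 and 8.01 in unimpaired rats and 6.77, 7.52 and 8.28 in young rats. The medians differ little beside a range of over 1 log2 unit in every group, and the 95% interval for impaired minus young was -0.45 to 0.57.

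Of the beta subunits, Scn4b, which supports resurgent sodium current, had 6.58, 7.54 and 7.86 in impaired rats, 6.84, 7.08 and 7.57 in unimpaired rats and 6.34, 6.98 and 7.37 in young rats. Of the 7 impaired arrays 4 were above every young array, and of the 6 unimpaired arrays 2 were, while the lowest impaired array was below the young mean. The difference was 0.41 ± 0.19 for impaired minus young, a 1.33-fold ratio, with a 95% interval of 0.02 to 0.80 and adjusted p = 0.375 in limma. It was 0.24 ± 0.20 for unimpaired minus young (adjusted p = 0.551).

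Scn2b, a covalently linked beta subunit that helps bring channels to the membrane, had 11.29, 11.46 and 11.58 in impaired rats, 11.14, 11.35 and 11.55 in unimpaired rats and 11.37, 11.48 and 11.77 in young rats. Of the aged arrays, 2 impaired and 1 unimpaired were above the young mean. The differences were -0.07 ± 0.06 for impaired minus young and -0.17 ± 0.07 for unimpaired minus young (unadjusted p = 0.0225, adjusted p = 0.212 in limma). Scn3b averaged 12.13 in impaired, 12.14 in unimpaired and 12.16 in young rats.

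The calcium channel pores differed little between groups. Cacna1d, an L-type pore that opens at relatively negative potentials, had 8.13, 8.22 and 8.39 in impaired rats, 8.04, 8.31 and 8.40 in unimpaired rats and 7.84, 8.05 and 8.57 in young rats. Most aged arrays, 6 of 7 impaired and 5 of 6 unimpaired, were above the young mean, but the highest array was young. All aged minus young was 0.12 ± 0.08 (adjusted p = 0.528 in limma), and it was 0.08 without young replicate 4 and 0.18 without young replicate 6. Cacna1c, the other L-type pore, had 7.97, 8.12 and 8.38 in impaired rats, 7.91, 8.07 and 8.20 in unimpaired rats and 7.59, 8.16 and 8.38 in young rats.

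Cacna1a, the pore of P/Q-type channels at release sites, averaged 6.03 in impaired, 6.08 in unimpaired and 6.04 in young rats by its highest probe set. The SD of this probe set was 0.015 in impaired, 0.07 in unimpaired and 0.13 in young rats. In impaired rats it was nearly as flat as Scn4a (0.012), which was below the threshold. Whether these values lie above background was not tested. The 3 probe sets of Cacna1a gave all aged minus young differences of 0.02, -0.03 and -0.09. The last, from the weakest probe set (mean 4.33), had all 13 aged arrays below the young mean and an unadjusted p of 0.0338 (adjusted p = 0.291 in limma). Its medians were 4.31 in impaired, 4.29 in unimpaired and 4.31 in young rats. Above every aged array were 3 young arrays, which raise the young mean. Cacna1b, the N-type pore, averaged 8.67 in impaired, 8.65 in unimpaired and 8.68 in young rats.

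Of the alpha2delta subunits, which carry the channels to the membrane, Cacna2d3 had log2 values of 9.74, 9.88 and 10.07 in impaired rats, 9.55, 9.74 and 9.86 in unimpaired rats and 9.81, 9.94 and 10.12 in young rats. All 6 unimpaired arrays were below the young mean and 4 were below every young array, and the impaired mean lay between those of the other groups. The difference was -0.22 ± 0.06 for unimpaired minus young, with a 95% interval of -0.35 to -0.10 and adjusted p = 0.0704 in limma, the smallest of any channel gene in that comparison. Impaired minus young was -0.08 ± 0.06 (adjusted p = 0.623). Impaired minus unimpaired was 0.14 ± 0.06, with 7 of 7 impaired arrays above the unimpaired mean and adjusted p = 0.291 in limma. Of all probe sets, 72.4% had a positive difference in that comparison. Over 32 alternatives the difference of Cacna2d3 ranged from 0.07 to 0.19. Cacna2d1, the gabapentin-binding subunit, averaged 9.17 in impaired, 9.23 in unimpaired and 9.23 in young rats.

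The cytoplasmic beta subunits, which assist pore trafficking and gating, were close between groups. Cacnb3 had 9.42, 9.48 and 9.56 in impaired rats, 8.85, 9.47 and 9.60 in unimpaired rats and 9.43, 9.49 and 9.63 in young rats. Its difference of -0.13 ± 0.08 for unimpaired minus young was -0.02 without unimpaired replicate 8, the low array. Cacnb1 averaged 8.82 in impaired, 8.79 in unimpaired and 8.83 in young rats, with the smallest pooled SD of the 18 genes, 0.0815. Cacnb2 averaged 8.59 in impaired, 8.53 in unimpaired and 8.59 in young rats.

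Cacng3, a TARP that carries AMPA receptors to synapses, had 9.00, 9.19 and 9.44 in impaired rats, 8.84, 9.17 and 9.39 in unimpaired rats and 8.58, 8.83 and 9.38 in young rats. Of the 13 aged arrays, 12 were above the young mean, and the groups overlapped. The difference was 0.29 ± 0.10 for impaired minus young (adjusted p = 0.192 in limma), 0.27 ± 0.10 for unimpaired minus young (adjusted p = 0.18) and 0.02 ± 0.10 between the aged groups (adjusted p = 0.94).

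The single high young value, 9.38 in young replicate 1, stood apart from the other 7 young arrays, which reached 8.94 and averaged 8.80 ± 0.13 (SD). Without that array the adjusted p for Cacng3 in limma was 0.0381 for impaired minus young (0.37 ± 0.08), 0.0426 for unimpaired minus young (0.35 ± 0.08) and 0.0134 for all aged minus young (0.36 ± 0.07). With all 21 arrays the last was 0.28 ± 0.08 and 0.111. The array was singled out by its own Cacng3 value, and the young mean of this gene was 8.87 with it. The fit without it is therefore no separate test of Cacng3. In no other alternative fit did Cacng3 pass. Cacng2 (stargazin), the related TARP, averaged 9.00 in impaired, 9.02 in unimpaired and 9.06 in young rats.

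Hcn2, a cyclic AMP-sensitive HCN pore, had log2 values of 4.97, 5.11 and 5.45 in impaired rats, 4.95, 5.01 and 5.38 in unimpaired rats and 4.54, 4.91 and 5.01 in young rats. All 13 aged arrays were above the young mean, and 8 of them, 6 impaired and 2 unimpaired, were above every young array. The difference was 0.34 ± 0.09 for impaired minus young, a 1.26-fold ratio, with a 95% interval of 0.15 to 0.53 and adjusted p = 0.102 in limma. It was 0.25 ± 0.09 for unimpaired minus young (adjusted p = 0.18) and 0.30 ± 0.08 for all aged minus young (adjusted p = 0.076). Between impaired and unimpaired rats it was 0.09 ± 0.10 (adjusted p = 0.71). The level of Hcn2 lies close to the threshold of 4, and its unimpaired median equalled the highest young value.

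**Figure D3:**
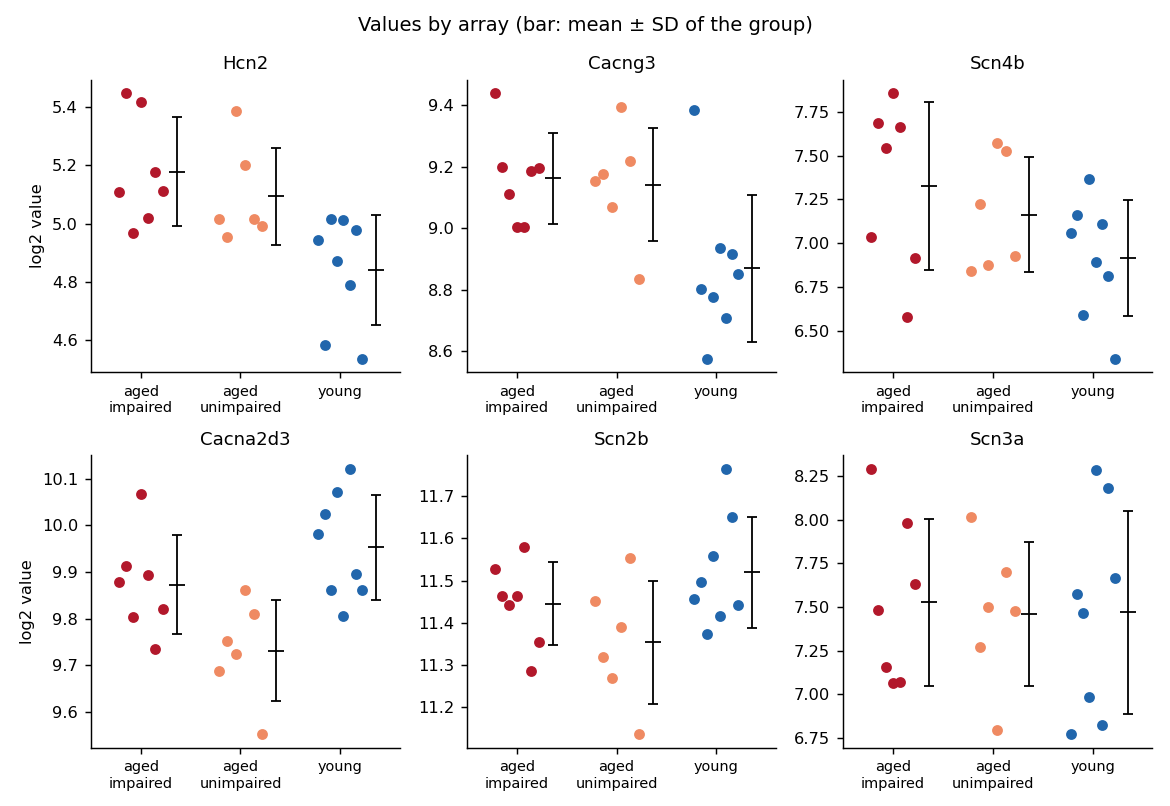
Log2 values of 6 channel genes on each of 21 arrays, for aged impaired, aged unimpaired and young rats; points are arrays and bars the group mean ± SD. Hcn2 and Cacng3 sit higher in both aged groups with overlap, Cacna2d3 sits lowest in unimpaired rats, and Scn3a and Scn4b are widely spread in every group.

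How the channel genes varied together within groups was described by correlating arrays after each group's mean was removed (153 pairs, 21 arrays, permutation of arrays within groups with 100000 resamples, two-sided). After Benjamini-Hochberg adjustment of Pearson's r, 4 pairs passed, all positive. Cacna2d3 and Scn4b had r = 0.75 (p = 0.00011, adjusted p = 0.0148) and rho = 0.78 (adjusted p = 0.0153), and r was 0.73 without the 2 farthest arrays. Cacna2d3 and Cacng2 had r = 0.72 (p = 0.00029, adjusted p = 0.0148) and rho = 0.73 (adjusted p = 0.0283), and r was 0.68 without 2 arrays. Cacna2d1 passed by r with Cacna1b (r = 0.73, p = 0.00021, adjusted p = 0.0148) and with Cacnb2 (r = 0.64, p = 0.00082, adjusted p = 0.0314). For both, rho missed the threshold: 0.60 with Cacna1b (adjusted p = 0.0887) and 0.67 with Cacnb2 (adjusted p = 0.0612), and r without 2 arrays was 0.62 and 0.51. Cacna1b and Cacng2 passed by rho (0.71, adjusted p = 0.0408) and not by r (0.56, adjusted p = 0.102). Genes on 1 array share its dissection and its normalization.

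Each of the 18 genes was also set against 12 lists of cell type markers, and 4 of these 216 relations, held by Cacna2d3, Cacng2 and Scn4b, passed after adjustment in the same test. The score of CA3 and CA2 markers (Grik4, Bok, Nptx1, Nectin3, Amigo2, Rgs14, Pcp4), the list's mean minus that of other tested probe sets, followed Cacna2d3 with r = 0.83 (p = 2e-05, adjusted p = 0.00432), rho = 0.83 (adjusted p = 0.00324) and r = 0.76 without the 2 farthest arrays. It followed Cacng2 with r = 0.81 (p = 0.00016, adjusted p = 0.0166), rho = 0.78 (adjusted p = 0.02) and 0.71 without 2 arrays. With Scn4b it gave r = 0.72 (p = 0.00023, adjusted p = 0.0166), rho = 0.79 (adjusted p = 0.00324) and 0.65 without 2 arrays. Scn4b also ran opposite to markers of immature granule cells and progenitors (Sox4, Nrep, Tubb2b, Stmn1), with r = -0.75 (p = 0.00033, adjusted p = 0.0178), rho = -0.75 (adjusted p = 0.02) and -0.68 without 2 arrays.

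The CA3 and CA2 score ranged from 0.48 to 0.99 in impaired rats, from 0.61 to 0.71 in unimpaired rats and from 0.52 to 0.9998 in young rats. The log2 of the list's summed level ran from 13.3 to 13.5 in impaired rats, 13.3 to 13.5 in unimpaired rats and 13.4 to 13.7 in young rats, and 0 of its 7 genes passed in limma in any comparison (0 to 2 at an unadjusted p below 0.05). The progenitor list, of which 4 of the 12 genes on the array were measured, scored 2.35 to 2.63 in impaired rats, 2.33 to 2.55 in unimpaired rats and 2.70 to 3.01 in young rats. Of its 4 genes, 3 fell in impaired rats and 2 fell in unimpaired rats against young, where 0.204% and 0.936% of all probe sets were lower by the same test. Its part in the channel values was not tested.

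With the CA3 and CA2 score as a covariate, Scn4b was 0.60 ± 0.14 for impaired minus young (adjusted p = 0.0693 in limma) and 0.44 ± 0.15 for unimpaired minus young (adjusted p = 0.145). Cacna2d3 was then -0.16 for unimpaired minus young (adjusted p = 0.0659) and -0.02 for impaired minus young. No channel gene passed in this fit. The covariate was chosen after seeing the data, and its score followed Scn4b and Cacna2d3 on these same arrays. The fit is therefore no separate test of either gene.

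**Figure D4:**
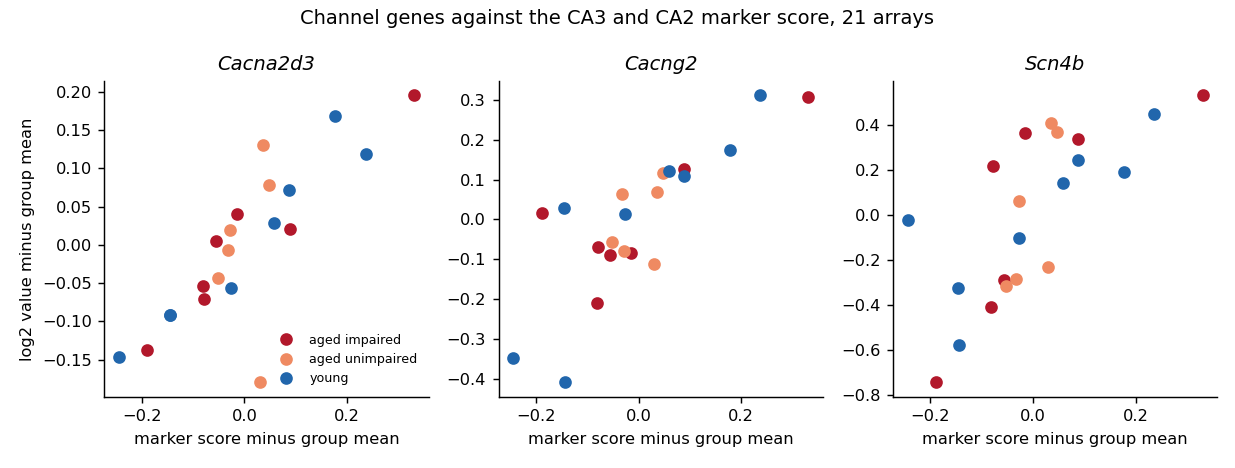
Log2 values of Cacna2d3, Cacng2 and Scn4b against the score of 7 CA3 and CA2 marker genes, both as deviations from the group mean, on 21 arrays coloured by group. All 3 genes are higher on arrays with a higher score, with r of 0.83, 0.81 and 0.72.

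A list of 109 genes that anchor, modify or work beside these channels had 70 measured members: anchoring proteins of the axon initial segment, calmodulin and its kinases, release site scaffolds, calcium stores, pumps and exchangers. In limma 1 of 70 passed in impaired against young rats and 1 of 70 in unimpaired against young rats, in both cases lower (0.204% and 0.936% of all probe sets in that direction), and 0 of 70 passed between the aged groups. At an unadjusted p below 0.05 these counts were 6 (8.57%, against 12.4% of all probe sets), 10 (14.3%, against 17%) and 7 (10%, against 14.5%). The median differences over the 70 genes were 0.004, -0.04 and 0.06, against 0.01, -0.04 and 0.05 over all probe sets.

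The gene that passed was Nfasc, neurofascin, an adhesion molecule that clusters sodium channels at axon initial segments and nodes and that oligodendrocytes also make. By its highest probe set it had log2 values of 8.52, 8.76 and 8.83 in impaired rats, 8.60, 8.64 and 8.74 in unimpaired rats and 8.85, 8.97 and 9.25 in young rats. All 13 aged arrays were below every young array. Nfasc fell by 0.30 ± 0.06 in impaired rats (adjusted p = 0.03 in limma) and by 0.33 ± 0.07 in unimpaired rats (adjusted p = 0.0191) against young. The aged groups differed by 0.03 ± 0.07 (adjusted p = 0.861), and all aged minus young was -0.32 ± 0.05 (adjusted p = 0.0049).

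The other 3 measured Nfasc probe sets did not give 1 answer. The probe set with the next highest mean had 7.74 ± 0.09 in impaired rats, 7.70 ± 0.23 in unimpaired rats and 8.03 ± 0.19 in young rats (SD), with all aged minus young -0.31 ± 0.08 and adjusted p = 0.0547 in limma. The remaining probe sets gave 0.14 ± 0.09 (adjusted p = 0.503) and 0.06 ± 0.03 (adjusted p = 0.46), in the opposite direction. Which transcript of Nfasc each probe set reads is not given in the sources used here.

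Of the oligodendrocyte markers, 10 were measured. In impaired against young rats 0 of 10 passed in limma (0.514% of all probe sets), with a median difference of -0.02 (0.01 over all probe sets). At an unadjusted p below 0.05 in limma there were 3 of 10, against 12.4% of all probe sets. In unimpaired rats 3 of 10 (Cldn11, Mal and Ugt8) fell, where 0.936% of all probe sets did. All 10 differences between unimpaired and young rats were negative, where 34% of all probe sets had a positive one. Their median was -0.32, against -0.04 over all probe sets. Of these 10 markers, 7 were at an unadjusted p below 0.05 in limma, against 17% of all probe sets. Their part in the Nfasc difference was not tested. Without the 4 arrays of highest meningeal score, Nfasc in impaired minus young was -0.26 with adjusted p = 0.224. Without the 4 arrays of highest choroid plexus score it was -0.23 for impaired minus young (adjusted p = 0.295 in limma), -0.31 for unimpaired minus young (adjusted p = 0.0665) and -0.27 for all aged minus young (adjusted p = 0.0606). For impaired minus young it also missed the threshold without impaired replicate 3, 7 or 8 and without young replicate 2, 4, 6 or 9, with adjusted p from 0.0541 to 0.0741.

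**Figure D5:**
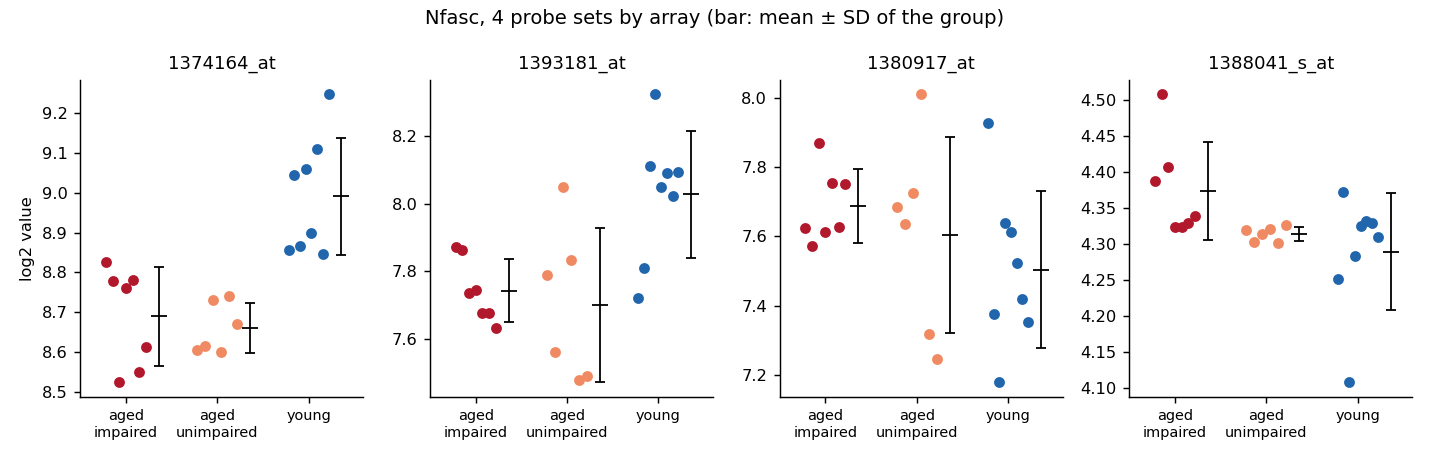
Log2 values of the 4 measured Nfasc probe sets on 21 arrays, for aged impaired, aged unimpaired and young rats; points are arrays, bars the group mean ± SD, and the y axis the log2 value. The aged arrays lie below all young arrays in the first panel and mostly below the young mean in the next, and not in the others.

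The other genes with the smallest p-values in the list did not pass. Ank2, an ankyrin that anchors membrane proteins, gave -0.18 ± 0.05 for unimpaired minus young (adjusted p = 0.0954 in limma) and 0.16 for impaired minus unimpaired (adjusted p = 0.209). Slc8a1, a sodium-calcium exchanger, gave -0.42 ± 0.12 for unimpaired minus young (adjusted p = 0.0982) and -0.33 ± 0.10 for all aged minus young (adjusted p = 0.123). Calb1, the calcium buffer calbindin of mature granule neurons, was below the young mean on 13 of 13 aged arrays, with all aged minus young -0.17 ± 0.06 (adjusted p = 0.176). Of the 11 measured granule neuron markers, Calb1 among them, 4 had a positive and 7 a negative difference in that comparison. Over all probe sets 43.2% had a positive one. Of the 11 markers, 1 rose (Pdyn, the precursor of dynorphin, by 0.36 ± 0.07, adjusted p = 0.0138 in limma), as did 61 of all 15177 probe sets. At an unadjusted p below 0.05 in limma 3 markers were higher and 3 lower, against 768 and 1446 of the 15177 probe sets.

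The smallest p-values in the remaining comparisons belonged to Erc1, a release site scaffold, with -0.20 ± 0.07 for impaired minus young (adjusted p = 0.245 in limma), and Nalcn, a sodium leak channel, with 0.13 ± 0.05 (adjusted p = 0.253). Between impaired and unimpaired rats they belonged to Dpysl2, a binding partner of N-type channels, with 0.16 ± 0.05 (adjusted p = 0.186), and Fgf13, a cytoplasmic partner of sodium channels, with 0.12 (adjusted p = 0.218).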

How the data were processed

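The authors deposited 1 table of log2 probe set values, for which the submitters' processing notes name GCRMA without a version. The values keep no read depth: the number of arrays limits precision. Groups follow the labels, young replicate 9 as its title gives it, and no batch is given there. The labels number the arrays as biological replicates. The group differences come from a single limma 3.58.1 fit (R 4.3.3, lmFit and eBayes) of the 3 groups, which leaves 18 residual degrees of freedom, with Benjamini-Hochberg adjustment over the 15177 probe sets above log2 4 on at least 6 arrays. The fit was tested on simulated data. All 39 genes matched RefSeq (GRCr8) by gene identifier. Named genes were those with an adjusted p below 0.05 and the 6 with the smallest p in each comparison; the other measured channel genes were given by role, and the partner genes by the 3 smallest p. The members and lists were chosen with earlier results of these data known. The alternatives were other normalizations, filters, probe sets and fits, and leaving out arrays. Same-numbered arrays of different groups were checked for pairing: their deviations correlated at -0.12 to 0.20 over 17 pairs.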

Additional observations from a re-analysis of the deposited data

Results flagged for a closer look

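Of 87 groups of arrays examined over 29 probe sets, 11 held an array that stood apart from the others of its group by Dixon's ratio, where chance gives about 5%. Unimpaired replicate 8 was low for Cacnb3 (8.85, next 9.35) and Cacnb1 (8.60, next 8.80) and high for Cacna1h (3.84, next 3.22). Cacna1h, below the threshold in the means of all groups, also stood high on impaired replicate 3 (3.70, next 3.18) and on young replicate 7 (6.16, next 3.43). Young replicate 1 was high for Cacng3 (9.38, next 8.94). Young replicate 3 was low for Cacna1c (7.59, next 8.09) and for the weakest measured probe set of Nfasc (4.11, next 4.25). Unimpaired replicate 3 was low for Cacna1d (8.04, next 8.27), and unimpaired replicate 7 was low for the weakest measured probe set of Cacna1a (4.16, next 4.29). Impaired replicate 4 was high for Cacnb2 (8.76, next 8.61).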

How the results depend on the processing

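Of 34 alternatives for each count of channel genes past the test, each fit that left out 1 array gave 0 to 1 genes in impaired, unimpaired and all aged against young rats. The 1 was Cacng3 without young replicate 1, the array that stood apart for Cacng3. The other alternatives gave 0, and impaired against unimpaired rats gave 0 in all 34. A fit with the replicate number as a block, which the pairing check did not bear out, gave 0 channel genes in each comparison. With that block, the adjusted p for Nfasc was 0.0531 for impaired minus young, 0.107 for unimpaired minus young and 0.0385 for all aged minus young. Of 32 alternatives, Nfasc lost its call in 13 for impaired minus young, in 2 for unimpaired minus young and in 1 for all aged minus young, the last without the 4 arrays of highest choroid plexus score. Its difference between the aged groups reversed to -0.031 after quantile normalization. No channel gene passed with the CA3 and CA2 score as a covariate or without the 4 choroid plexus arrays, both chosen after seeing the data. Leaving arrays out also lowers the number of calls that can be made, and the number of arrays limits what could be detected.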
